A study of Mus musculus with 24 samples.

Results

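The 10 genes described here encode proteoglycans of the extracellular matrix and enzymes that make hyaluronan: Vcan, Acan, Bcan, Bgn, Dcn, Lum, Fmod, Prg4, Has1 and Has2. They were chosen by name, each through the array features annotated to its symbol, and all 10 were measured among 20728 genes. The choice was made with earlier results of these data known. Their share of calls, set beside that of all genes below, is therefore a description only. Vcan, Bcan and Prg4 had more than 1 feature, and the brightest on average was taken for each. The series asked how silencing of Dnm3os, a long noncoding RNA, bears on lung fibrosis caused by bleomycin, a drug that injures the lung. Total RNA from whole lungs of C57BL/6 mice aged 9 to 12 weeks was measured on 24 one-colour arrays.

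Every mouse was given a gapmer, an antisense oligonucleotide that directs cleavage of the RNA it pairs with, so no group was free of oligonucleotide. The gapmer was a control gapmer, Dnm3os gapmer 1 or Dnm3os gapmer 3. Each was combined with PBS, the vehicle, in 3 arrays, or with bleomycin in 5 arrays, which gave 6 groups. Whole lung mixes all resident and recruited cells, and a lower signal can come from fewer cells of a type or from less RNA per cell, which cannot be told apart here. Since the labels number the samples without naming animals, p-values here reflect the variation among these samples only, which may be technical in part.

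Proteoglycans are core proteins that carry sulphated sugar chains. Versican (Vcan), aggrecan (Acan) and brevican (Bcan) are hyalectans, which bind hyaluronan through their amino-terminal part; versican belongs to provisional matrix in many tissues, aggrecan to cartilage and brevican to the nervous system. Biglycan (Bgn), decorin (Dcn), lumican (Lum) and fibromodulin (Fmod) are small leucine-rich proteoglycans that bind collagen fibrils and influence their assembly. Hyaluronan itself has no core protein and is made at the plasma membrane by the synthases Has1, Has2 and Has3, and lubricin (Prg4) is a mucin-like lubricant of joint surfaces.

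Promoter sequence from RefSeq (GRCm38.p6) was matched by symbol for 6 of the 10 genes, Vcan, Acan, Bcan, Bgn, Fmod and Has1. The 250 bases before the start of Bgn and of Fmod are shown, 2 matrix genes whose levels under bleomycin are described below and whose upstream letters differ. Capitals mark a GC box (GGGCGG) or a SMAD box (CAGAC) on either strand, and adjacent matches can overlap. These 2 promoters and the motifs put in capitals were picked after the array values and the matches had been seen.
Bgn, chrX:73483351-73483600, plus strand: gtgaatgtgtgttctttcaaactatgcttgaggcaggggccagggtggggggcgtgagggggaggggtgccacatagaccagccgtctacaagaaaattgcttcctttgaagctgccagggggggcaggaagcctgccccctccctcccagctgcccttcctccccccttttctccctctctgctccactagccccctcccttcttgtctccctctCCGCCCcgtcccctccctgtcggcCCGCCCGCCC
Fmod, chr1:134037004-134037253, plus strand: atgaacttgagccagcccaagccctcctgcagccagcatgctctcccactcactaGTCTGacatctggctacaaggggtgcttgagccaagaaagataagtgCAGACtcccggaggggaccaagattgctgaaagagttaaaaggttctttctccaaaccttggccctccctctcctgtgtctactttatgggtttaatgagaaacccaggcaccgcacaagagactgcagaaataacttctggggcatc
The Bgn window held 3 GC boxes, of which the last 2 overlap, and 0 SMAD boxes. The Fmod window held 0 GC boxes and 2 SMAD boxes. A GC box lay in 32.9% and a SMAD box in 42.1% of the 27025 promoter windows of this length. Vcan held 2 GC boxes, Acan 3 and Bcan 1, while Has1 held 2 SMAD boxes. The other motifs searched, on both strands, were AP-1 (TGANTCA, in 6.87% of all windows), the TATA box (TATAAA, 13.0%), the doubled SMAD box (GTCTAGAC, 0.174%) and the E-box (CANNTG, 66.0%). None of the 6 windows held the first 3 of these letter strings, and 5 of the 6 held an E-box, Bcan being the exception. A match is a string of letters and not a measured site.

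Levels are given as log2 intensity, on which a difference of 1 is a doubling, and are compared for the same array feature only. Differences were tested with limma across all 20728 genes, and a gene is said to rise or fall where the Benjamini-Hochberg adjusted p was under 0.05. Values after ± are the SD between arrays, and SE belongs to a difference. The 25th percentile of gene means was 6.11, called the dim level below. Precision was set by the few arrays: over all genes the 95% interval typically reached 0.21 to either side of a difference of 5 against 3 arrays and 0.18 for 5 against 5 (medians).

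The targeted RNA, Dnm3os, averaged 6.90 ± 0.17 in bleomycin lungs of the control gapmer group (n = 5), 6.18 ± 0.19 in those given gapmer 1 and 6.40 ± 0.22 in those given gapmer 3 (n = 5 each). It was lower by 0.72 with gapmer 1 (limma adjusted p = 0.000186) and by 0.50 with gapmer 3 (limma adjusted p = 0.00293). The PBS groups averaged 6.34, 5.89 and 6.10, where the differences did not pass. The PBS means with gapmer 1 and gapmer 3 lay under the dim level, and the bleomycin gapmer 1 mean lay close to it. These levels may be background, so the size of the Dnm3os differences is uncertain and a fall in PBS lungs may be missed. The 6 lung-defining markers averaged 15.08 to 15.57 per array, and 0 of them lay under the dim level in any group. Skeletal muscle markers ranged from 6.48 to 12.41 over the arrays and differed within some groups and between groups. Their list mean was 9.46 to 9.62 in bleomycin lungs and 11.18 to 12.41 in PBS lungs with the control gapmer. In bleomycin lungs it was 10.28 to 10.92 with gapmer 1 and 7.60 to 12.39 with gapmer 3. Of the 8 markers 2 fell with bleomycin under the control gapmer, and 1 was higher with gapmer 1 in bleomycin lungs. The part of muscle in the results was not tested. Myofibroblast markers averaged 10.44 to 10.80 in bleomycin lungs with the control gapmer, 9.66 to 10.49 with gapmer 1 and 9.49 to 10.06 with gapmer 3, against 9.08 to 9.15 in PBS lungs with the control gapmer. Replicate 4 of the bleomycin gapmer 1 group lay nearer the control gapmer group than its other 4 arrays for Has2, Bcan, Vcan and Fmod. Those gapmer 1 differences in bleomycin lungs are also given without it. Since the array was picked for this, leaving it out must enlarge these differences, and the larger values are no separate support.

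Under the control gapmer, bleomycin raised Has2, Lum, Fmod, Vcan and Bgn and lowered Bcan. These are 6 of the 10 genes, 5 higher and 1 lower. Of all genes 33.8% passed the same test, 14.5% higher and 19.3% lower. For these 6 genes the bleomycin and PBS arrays did not overlap, which held for 33.3% of all genes. The median difference was 0.49 over the 10 genes and -0.02 over all genes tested. Dcn, Acan, Prg4 and Has1 did not pass. In bleomycin lungs, each Dnm3os gapmer was compared with the control gapmer, and both comparisons use the same 5 control arrays. With gapmer 1, Has2, Fmod, Bgn and Lum were lower and Bcan higher, 5 of 10 against a background of 10.5% of all genes (5.47% higher and 5.08% lower). With gapmer 3, Has2, Bgn, Vcan and Lum were lower and Bcan higher, again 5 of 10, against 13.2% of all genes (5.63% higher and 7.52% lower). The median difference over the 10 genes was -0.20 with gapmer 1 and -0.28 with gapmer 3, and 0.02 and 0.01 over all genes.

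**Figure D1:**
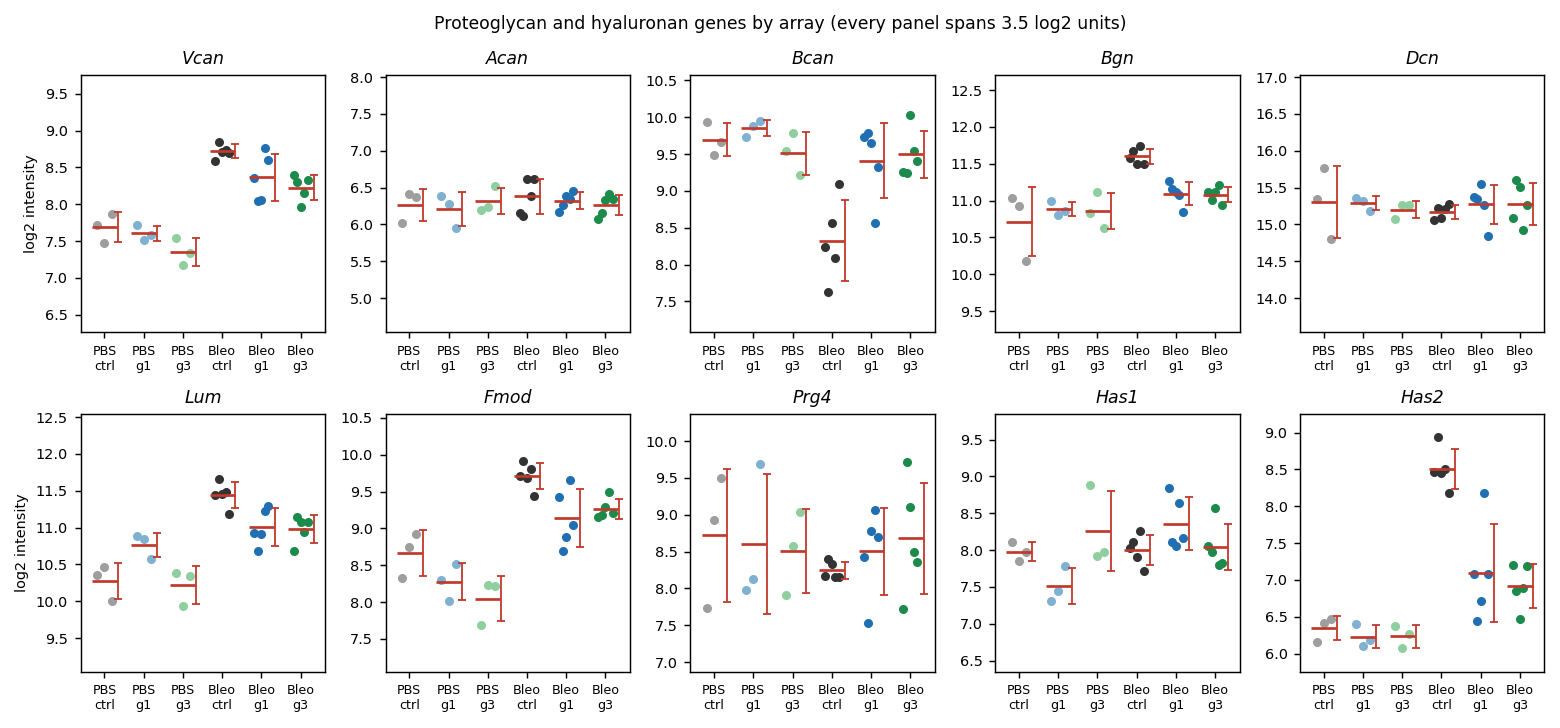
Log2 intensity of each of the 10 genes on each of the 24 arrays, by group (PBS or bleomycin; ctrl, control gapmer; g1, gapmer 1; g3, gapmer 3). Points are arrays, the red line is the group mean and the red bar its SD; every panel spans 3.5 log2 units, so spreads can be compared across panels while levels cannot. In bleomycin lungs the Has2 mean was 8.51 (ctrl), 7.10 (g1) and 6.92 (g3), and Dcn stayed between 14.80 and 15.77 on all arrays.

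Has2, the synthase that makes long hyaluronan chains, showed the largest difference of the 10 genes in bleomycin lungs. In PBS lungs with the control gapmer it read 6.16, 6.41 and 6.47 on the 3 arrays. In bleomycin lungs with the control gapmer it read 8.46, 8.94, 8.45, 8.50 and 8.18, all above every PBS array. The rise was 2.16 (SE 0.26, 95% interval 1.63 to 2.69, limma adjusted p = 1.36e-06), which is 4.47-fold. The PBS arrays lay close to the dim level, so the PBS level may be background and the fold is less certain.

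With gapmer 1 the 5 bleomycin arrays read 7.08, 6.44, 6.71, 8.18 and 7.08 for Has2. Replicate 4 lay within the range of the control gapmer group and the other 4 arrays below it. Has2 was lower by 1.41 on the log2 scale, 2.66-fold (SE 0.22, 95% interval -1.87 to -0.95, limma adjusted p = 0.000344), and the difference was -1.68 without replicate 4. With gapmer 3 the arrays read 7.20, 6.85, 6.47, 6.89 and 7.19, all below the control gapmer arrays. This was a fall of 1.59, 3.00-fold (SE 0.22, 95% interval -2.05 to -1.13, limma adjusted p = 6.18e-05).

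Has2 stayed close to the dim level in PBS lungs with either Dnm3os gapmer, at 6.40, 6.10 and 6.19 with gapmer 1 and 6.37, 6.07 and 6.26 with gapmer 3. Bleomycin lungs exceeded the matching PBS lungs by 0.87 with gapmer 1 (SE 0.26, limma adjusted p = 0.0355). With gapmer 3 they exceeded them by 0.68 (95% interval 0.15 to 1.22), which did not pass (limma adjusted p = 0.083), although all 5 bleomycin arrays lay above the 3 PBS arrays. The gapmer 1 call was lost when any 1 of 6 of its 8 arrays was left out (differences 0.59 to 0.95, limma adjusted p = 0.0513 to 0.137); the arrays were bleomycin replicates 1, 4 and 5 and all 3 PBS arrays.

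The bleomycin response of Has2 was smaller by 1.29 with gapmer 1 than with the control gapmer (SE 0.36, 95% interval -2.05 to -0.54, limma adjusted p = 0.0326). It was smaller by 1.48 with gapmer 3 (SE 0.36, 95% interval -2.23 to -0.72, limma adjusted p = 0.0287). The first call was lost on leaving out 9 of the 16 arrays in turn (differences -1.36 to -1.13, limma adjusted p = 0.0507 to 0.0852) and the second on leaving out 7 of 16 (differences -1.54 to -1.36, limma adjusted p = 0.0512 to 0.0854). The levels of myofibroblast markers moved with Has2: 6 of 7 rose with bleomycin under the control gapmer, and 5 of 7 were lower with either Dnm3os gapmer. Their part in the Has2 result was not tested.

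Has1, a second hyaluronan synthase, did not pass with bleomycin under the control gapmer. It read 8.11, 7.85 and 7.97 in PBS lungs and 8.03, 8.11, 7.90, 8.26 and 7.71 in bleomycin lungs, ranges that overlap, with a difference of 0.02 (95% interval -0.43 to 0.47, limma adjusted p = 0.958). In bleomycin lungs Has1 read 8.84, 8.11, 8.05, 8.64 and 8.16 with gapmer 1 and 8.05, 7.98, 8.57, 7.80 and 7.82 with gapmer 3. Neither differed from the control gapmer beyond the spread between arrays (0.36, 95% interval -0.03 to 0.75, and 0.04, -0.35 to 0.43; limma adjusted p = 0.268 and 0.921).

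With gapmer 1 Has1 was higher in bleomycin than in PBS lungs by 0.84 (SE 0.22, limma adjusted p = 0.0156). The PBS arrays read 7.31, 7.45 and 7.79, lower than the 3 PBS arrays of the control gapmer, and all 5 bleomycin arrays lay above them. The call was lost without PBS replicate 1 or 2 of that group (0.74 and 0.81, limma adjusted p = 0.0865 and 0.0717). The difference in response between gapmer 1 and the control gapmer was 0.82 and did not pass (95% interval 0.18 to 1.46, limma adjusted p = 0.103). In PBS lungs with gapmer 3 Has1 read 8.89, 7.92 and 7.98, with 1 array far above the other 2. The third synthase, Has3, was dim throughout, with group means of 5.85 to 6.04.

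Vcan, the hyalectan of provisional matrix, rose with bleomycin under each gapmer on its brightest feature. With the control gapmer it read 7.72, 7.47 and 7.87 in PBS lungs and 8.59, 8.85, 8.71, 8.74 and 8.70 in bleomycin lungs. The groups did not overlap and the rise was 1.04, 2.05-fold (SE 0.14, 95% interval 0.74 to 1.33, limma adjusted p = 6.72e-06). The rise was 0.76 with gapmer 1 (SE 0.14, limma adjusted p = 0.00135). Under gapmer 3 it was 0.87 (SE 0.14, limma adjusted p = 0.000205).

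In bleomycin lungs Vcan read 8.36, 8.04, 8.06, 8.76 and 8.60 with gapmer 1, where replicates 4 and 5 lay within the control gapmer range and the other 3 below it. The difference of -0.35 did not pass (limma adjusted p = 0.0692). It passed without replicate 4 (-0.45, limma adjusted p = 0.00992) or without replicate 5 (-0.41, limma adjusted p = 0.0411). With gapmer 3 Vcan read 8.39, 8.30, 7.96, 8.15 and 8.33, all below the control gapmer arrays, a fall of 0.49, 1.41-fold (SE 0.12, limma adjusted p = 0.00892). The bleomycin response itself was not shown to differ, by -0.27 with gapmer 1 (95% interval -0.69 to 0.14) and by -0.16 with gapmer 3 (-0.58 to 0.25). In PBS lungs the 3 arrays read 7.72, 7.52 and 7.58 with gapmer 1 and 7.54, 7.17 and 7.34 with gapmer 3.

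Vcan had 2 further features. The one with a mean of 7.61 rose by 0.73 with bleomycin under the control gapmer (limma adjusted p = 6.72e-06) and by 0.33 under gapmer 1 (limma adjusted p = 0.0408). Under gapmer 3 its difference of 0.29 did not pass (limma adjusted p = 0.0598), and its differences from the control gapmer in bleomycin lungs did not pass (-0.19 with gapmer 1 and -0.24 with gapmer 3, limma adjusted p = 0.181 and 0.0701). The other, with a mean of 5.65 under the dim level, stayed between 5.34 and 5.83 on all arrays. The fall of Vcan with gapmer 3 in bleomycin lungs and its rise with bleomycin under gapmer 3 therefore passed on the brightest of its 3 features only.

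Bcan, the hyalectan named for brain, was the only one of the 10 genes that fell with bleomycin under the control gapmer. It read 9.93, 9.49 and 9.67 in PBS lungs and 8.24, 7.63, 8.56, 8.09 and 9.10 in bleomycin lungs. All 5 bleomycin arrays lay below the PBS arrays, and the fall was 1.37, 2.59-fold (SE 0.27, 95% interval -1.94 to -0.80, limma adjusted p = 0.000438).

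In bleomycin lungs Bcan read 9.73, 9.79, 9.65, 8.57 and 9.32 with gapmer 1, of which 4 arrays lay above all control gapmer arrays and replicate 4 within their range. It was higher by 1.09, 2.12-fold (SE 0.24, 95% interval 0.59 to 1.58, limma adjusted p = 0.005), and by 1.30 without replicate 4 (limma adjusted p = 0.000314). With gapmer 3 it read 9.26, 9.25, 10.03, 9.54 and 9.41, all above the control gapmer arrays and higher by 1.17, 2.26-fold (SE 0.24, 95% interval 0.68 to 1.67, limma adjusted p = 0.00193). Bleomycin against PBS did not pass with gapmer 1 (-0.44, 95% interval -1.01 to 0.13, limma adjusted p = 0.374) or gapmer 3 (-0.01, -0.58 to 0.56, limma adjusted p = 0.985).

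The difference in the Bcan response from the control gapmer did not pass either, at 0.93 with gapmer 1 (95% interval 0.13 to 1.73, limma adjusted p = 0.145) and 1.36 with gapmer 3 (0.55 to 2.16, limma adjusted p = 0.0574). Replicate 5 of the bleomycin control gapmer group, the highest of its 5 arrays for Bcan, bore on both: without it the differences were 1.12 (limma adjusted p = 0.0429) and 1.55 (limma adjusted p = 0.0134). Without replicate 4 of the gapmer 1 group the first was 1.14 (limma adjusted p = 0.0317). The second Bcan feature, with a mean of 7.08, fell by 0.82 with bleomycin (limma adjusted p = 0.000126) and was higher by 0.66 with gapmer 1 and by 0.68 with gapmer 3 (limma adjusted p = 0.00179 and 0.00089).

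Bcan moved with alveolar epithelial markers, of which 5 of 7 fell with bleomycin under the control gapmer, 5 of 7 were higher with gapmer 1 and 4 of 7 with gapmer 3. The mean of that list ranged from 14.42 to 14.93 in bleomycin lungs with the control gapmer, from 14.75 to 15.30 with gapmer 1, from 15.05 to 15.12 with gapmer 3 and from 15.12 to 15.38 in PBS lungs with the control gapmer. No marker of the list was under the dim level. Of the nervous system markers 6 of 9 were measured and 2 of those lay under the dim level in every group. The list mean was 8.18 to 8.38 on all arrays, and Gfap, an astrocyte marker, read 5.55 to 6.10. Of the 6, 1 rose and 0 fell with bleomycin under the control gapmer. In bleomycin lungs 1 was lower and 0 higher with each Dnm3os gapmer. In those comparisons the mesothelial and endothelial markers that passed mostly moved the same way as Bcan. Among mesothelial markers 9 of 10 fell and 1 rose with bleomycin under the control gapmer. In bleomycin lungs 5 of the 10 were higher with gapmer 1 and 2 with gapmer 3. In PBS lungs 3 of the 10 were lower with gapmer 1, where Bcan did not pass. The mesothelial list mean was 9.91 to 10.08 in bleomycin lungs given the control gapmer, 10.13 to 10.40 with gapmer 1, 10.07 to 10.29 with gapmer 3 and 10.56 to 10.77 in the PBS control gapmer lungs. All 6 endothelial markers fell, and 2 were higher with gapmer 1 and 3 with gapmer 3. Bleomycin against PBS also lowered 4 of these 6 under gapmer 1 and all 6 under gapmer 3, where Bcan did not pass. Of the 10 mesothelial markers 1 fell and 1 rose with bleomycin under gapmer 1, and 5 fell and 0 rose under gapmer 3. The part of these cell types in the Bcan result was not tested.

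Acan, the large proteoglycan of cartilage, lay near the dim level on every array, between 5.95 and 6.62, and no comparison passed. Its difference with bleomycin under the control gapmer was 0.11 (95% interval -0.16 to 0.38, limma adjusted p = 0.583). Of 12 cartilage markers, 6 to 9 were under the dim level depending on the group, and the defining marker Matn1 read 5.26 to 5.77.

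**Figure D2:**
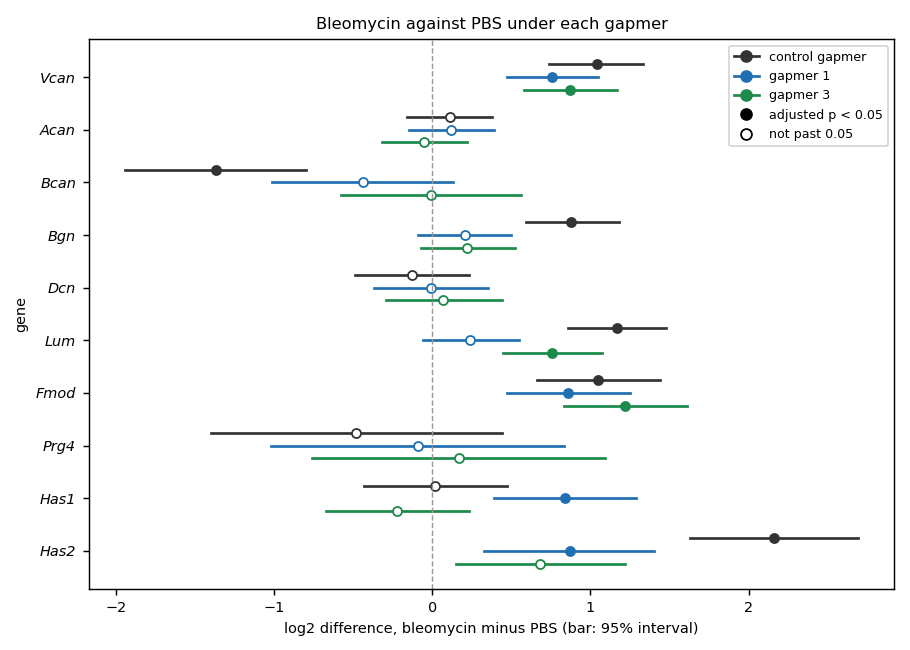
Difference between bleomycin and PBS lungs for each gene under the control gapmer (black), gapmer 1 (blue) and gapmer 3 (green), in log2 units, with 95% intervals from limma (5 against 3 arrays). Filled points have an adjusted p under 0.05; Has2 is at 2.16 under the control gapmer, 0.87 under gapmer 1 and 0.68 under gapmer 3, while Fmod is at 1.05, 0.86 and 1.22.

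Bgn, a small leucine-rich proteoglycan that carries chondroitin or dermatan sulphate, rose with bleomycin under the control gapmer. It read 11.03, 10.93 and 10.18 in PBS lungs, with replicate 3 far below the other 2, and 11.58, 11.67, 11.50, 11.74 and 11.50 in bleomycin lungs. The groups did not overlap, and the rise was 0.88, 1.84-fold (SE 0.14, 95% interval 0.59 to 1.18, limma adjusted p = 4.9e-05). Over the 8 arrays left out in turn it ranged from 0.62 to 1.04 and passed each time.

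In bleomycin lungs Bgn read 11.27, 11.15, 11.12, 11.07 and 10.85 with gapmer 1 and 11.12, 11.01, 11.12, 11.21 and 10.94 with gapmer 3. Every array of either group lay below the 5 control gapmer arrays. Bgn was lower by 0.51 with gapmer 1, 1.42-fold (SE 0.12, limma adjusted p = 0.0107). For gapmer 3 the fall was 0.52, 1.43-fold (SE 0.12, limma adjusted p = 0.00719). It was the only one of the 10 genes whose gapmer 1 and control gapmer arrays did not overlap, where 6.28% of all genes did not overlap. With gapmer 3, 5 of the 10 genes did not overlap with the control gapmer (Vcan, Bcan, Bgn, Lum and Has2), against 12.9% of all genes.

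The bleomycin response of Bgn was 0.21 with gapmer 1 (95% interval -0.09 to 0.50) and 0.22 with gapmer 3 (-0.07 to 0.52), and neither passed. It was smaller than with the control gapmer by 0.67 for gapmer 1 (SE 0.20, limma adjusted p = 0.0437) and by 0.66 for gapmer 3, which did not pass (limma adjusted p = 0.0741). The gapmer 1 call was lost on leaving out 11 of its 16 arrays in turn (limma adjusted p = 0.0511 to 0.13), and without replicate 3 of the PBS control gapmer group, the low array, the difference was -0.41. Without replicate 2 of that group the gapmer 3 difference was -0.77 and passed (limma adjusted p = 0.0432). Within bleomycin lungs, the gapmer 1 difference of Bgn ran from -0.55 to -0.44 over the 10 arrays left out and passed each time (limma adjusted p = 0.0102 to 0.0356).

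Lum, a keratan sulphate proteoglycan of collagen-rich tissue, read 10.36, 10.46 and 10.00 in PBS lungs and 11.44, 11.66, 11.46, 11.48 and 11.18 in bleomycin lungs with the control gapmer. The rise was 1.17, 2.25-fold (SE 0.15, 95% interval 0.86 to 1.48, limma adjusted p = 2.68e-06), with no overlap. In bleomycin lungs it read 10.93, 10.68, 10.91, 11.23 and 11.30 with gapmer 1, of which 3 arrays lay below all control gapmer arrays. With gapmer 3 it read 10.68, 11.15, 11.07, 10.94 and 11.07, all below them.

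Lum was lower than with the control gapmer by 0.43 with gapmer 1 (SE 0.13, limma adjusted p = 0.0315). The fall with gapmer 3 was 0.46 (SE 0.13, limma adjusted p = 0.0189). The gapmer 1 call was lost on leaving out 7 of 10 arrays in turn (limma adjusted p = 0.0595 to 0.107); these were control gapmer replicates 1, 2, 3 and 4 and gapmer 1 replicates 1, 2 and 3. The gapmer 3 call was lost without control gapmer replicate 2 (-0.41, limma adjusted p = 0.065) or gapmer 3 replicate 1 (-0.39, limma adjusted p = 0.0553).

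In PBS lungs Lum read 10.88, 10.84 and 10.58 with gapmer 1, above all 3 control gapmer arrays, and 10.39, 9.93 and 10.35 with gapmer 3. The PBS difference of 0.49 with gapmer 1 did not pass (95% interval 0.15 to 0.84, limma adjusted p = 0.124). With gapmer 1 the bleomycin response of Lum was 0.24 and did not pass (limma adjusted p = 0.364); with gapmer 3 it was 0.76 and passed (limma adjusted p = 0.00116). The response was smaller by 0.93 with gapmer 1 than with the control gapmer (SE 0.21, 95% interval -1.36 to -0.49, limma adjusted p = 0.0124), a call that held on leaving out each of the 16 arrays (-1.02 to -0.79, limma adjusted p = 0.00524 to 0.043). The group means behind it were 10.77 with gapmer 1 and 10.27 with the control gapmer in PBS lungs, and 11.01 and 11.44 in bleomycin lungs. With gapmer 3 the response differed by -0.41 and did not pass (95% interval -0.84 to 0.02, limma adjusted p = 0.304).

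Fmod, fibromodulin, read 8.32, 8.75 and 8.92 in PBS lungs and 9.71, 9.92, 9.69, 9.81 and 9.44 in bleomycin lungs with the control gapmer. It rose by 1.05, 2.07-fold (SE 0.19, 95% interval 0.66 to 1.44, limma adjusted p = 0.000139). Its rise was 0.86 with gapmer 1 (SE 0.19, limma adjusted p = 0.00487) and 1.22 with gapmer 3 (SE 0.19, limma adjusted p = 0.00012), and under each gapmer all 5 bleomycin arrays lay above the PBS arrays.

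In bleomycin lungs Fmod read 9.43, 8.69, 8.88, 9.66 and 9.04 with gapmer 1, with 4 arrays below the control gapmer range and replicate 4 within it. It was lower by 0.58, 1.49-fold (SE 0.16, limma adjusted p = 0.0251), a call lost without control gapmer replicate 2 or 4 or gapmer 1 replicate 2 or 3 (-0.55 to -0.46, limma adjusted p = 0.0598 to 0.0885). Without gapmer 1 replicate 4 the Fmod difference was -0.70 (limma adjusted p = 0.00333). With gapmer 3 it read 9.15, 9.18, 9.29, 9.49 and 9.21, and the difference of -0.45 did not pass (95% interval -0.79 to -0.11, limma adjusted p = 0.0726). That difference passed without control gapmer replicate 5 (-0.52, limma adjusted p = 0.0447). In PBS lungs Fmod read 8.30, 8.01 and 8.51 with gapmer 1 and 7.69, 8.23 and 8.22 with gapmer 3, the latter all below the control gapmer arrays (-0.61, 95% interval -1.05 to -0.18, limma adjusted p = 0.379). The bleomycin response was not shown to differ, by -0.19 with gapmer 1 (95% interval -0.74 to 0.36) and by 0.16 with gapmer 3 (-0.39 to 0.72).

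Dcn, decorin, a collagen-binding proteoglycan abundant in connective tissue, was bright and close to level in all groups. With the control gapmer it read 15.35, 15.77 and 14.80 in PBS lungs and 15.06, 15.23, 15.09, 15.21 and 15.28 in bleomycin lungs, a difference of -0.13 (95% interval -0.49 to 0.23, limma adjusted p = 0.614). In bleomycin lungs its difference from the control gapmer was 0.10 with gapmer 1 and 0.10 with gapmer 3, both with a 95% interval of -0.21 to 0.41.

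Prg4, lubricin, had the widest intervals of the 10 genes. It read 7.73, 8.93 and 9.50 in PBS lungs and 8.17, 8.40, 8.33, 8.16 and 8.16 in bleomycin lungs with the control gapmer, a difference of -0.48 (95% interval -1.40 to 0.44, limma adjusted p = 0.452). In bleomycin lungs it ran from 7.53 to 9.07 with gapmer 1 and from 7.72 to 9.71 with gapmer 3. The lower end of that interval is a level 2.65-fold lower with bleomycin, so a fall of that size lies within it. Its second feature had a mean of 5.79, under the dim level.

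The 10 list members of the fibroblast markers averaged 12.18 to 12.63 on all arrays; 3 rose and 4 fell with bleomycin under the control gapmer, and 2 were higher and 1 lower with either Dnm3os gapmer. The median bleomycin response of the 7 myofibroblast markers was 1.37 under the control gapmer, 0.68 under gapmer 1 and 0.63 under gapmer 3. Beside it, the response of Bgn was 0.88, 0.21 and 0.22 and that of Lum 1.17, 0.24 and 0.76. For Vcan it was 1.04, 0.76 and 0.87 and for Fmod 1.05, 0.86 and 1.22, and the difference of this response from the control gapmer did not pass for either gene. The part of these cells in the results was not tested.

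**Figure D3:**
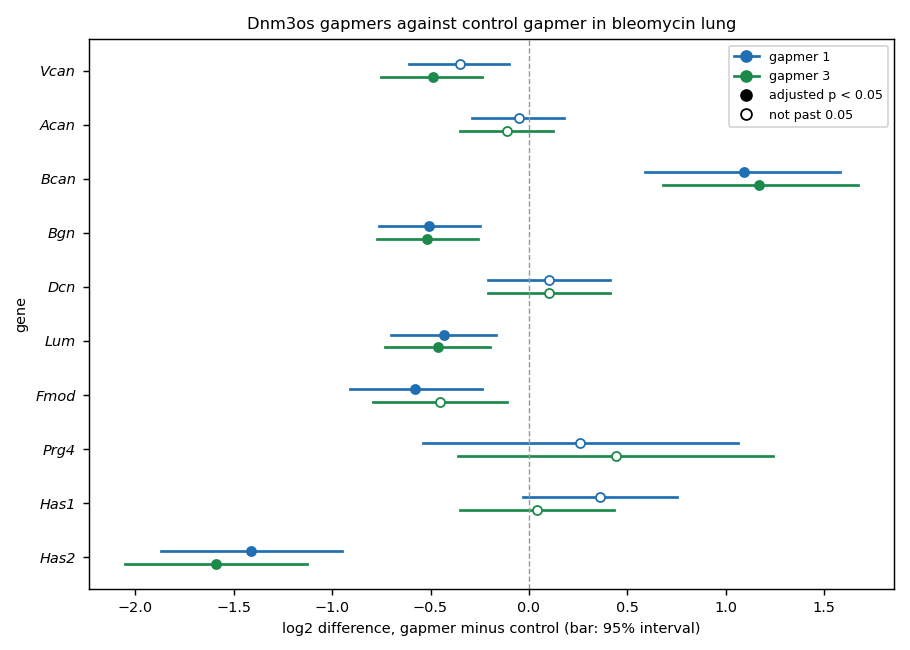
Difference between each Dnm3os gapmer and the control gapmer in bleomycin lungs (5 against 5 arrays), in log2 units, with 95% intervals from limma; both comparisons use the same control arrays. Filled points have an adjusted p under 0.05; Has2 lies at -1.41 and -1.59 and Bcan at 1.09 and 1.17.

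Between gapmer 3 and gapmer 1 in bleomycin lungs none of the 10 genes differed by the test, and neither did any of the 20728 genes (0.0% called; limma, adjusted p under 0.05), while 838 genes and 0 of the 10 had an unadjusted p under 0.05. The difference was -0.18 for Has2 (95% interval -0.64 to 0.29), 0.09 for Bcan (-0.40 to 0.58) and -0.31 for Has1 (-0.70 to 0.08). The intervals do not show that both gapmers act alike: for Has1 a 1.63-fold higher level with gapmer 1 lies at the edge of the interval.

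In PBS lungs 0 of the 10 genes passed for either Dnm3os gapmer (limma). The background was 1.11% of all genes with gapmer 1 (0.444% higher and 0.666% lower) and 0.0338% with gapmer 3 (0.00965% and 0.0241%), and 1 and 2 of the 10 genes had an unadjusted p under 0.05. The groups did not overlap for Lum and Has1 with gapmer 1, where 22.3% of all genes did not overlap, and for Fmod with gapmer 3, where 12.6% did not.

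With gapmer 1, bleomycin against PBS passed for 4 of the 10 genes, Vcan, Fmod, Has1 and Has2, all higher, where 9.48% of all genes passed (6.35% higher and 3.13% lower). The bleomycin and PBS arrays of 4 genes did not overlap, against 14.9% of all genes. With gapmer 3 it passed for 3, Fmod, Vcan and Lum, all higher, where 13.9% passed (7.02% higher and 6.85% lower), and 4 did not overlap, against 22.3%. The response differed from that with the control gapmer for 3 of the 10 genes with gapmer 1 (7.7% of all genes, 4.97% with a higher and 2.74% with a lower value) and for 1 with gapmer 3 (3.09%, 1.45% and 1.64%), each a smaller response. These comparisons share the control gapmer arrays with those described above.

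Some calls ended and others were gained under another setting of the fit. With only the groups compared in the fit, the bleomycin rise under gapmer 1 did not pass for Fmod (limma adjusted p = 0.0707), Has1 (0.0602) or Has2 (0.199). In bleomycin lungs the same setting ended the gapmer 1 calls of Lum (limma adjusted p = 0.0613) and Fmod (0.0698), and among the response differences with gapmer 1 those of Bgn (0.072) and Has2 (0.0615). With array weights the Bgn response difference was -0.52 (limma adjusted p = 0.0559). With the RNA integrity number as a covariate, which ran from 8.5 to 10.0, the rises under gapmer 1 were 0.73 for Has1 and 0.69 for Has2 (limma adjusted p = 0.0881 and 0.183), and the Has2 response difference with gapmer 3 was -1.33 (limma adjusted p = 0.0727). Calls were gained for Has2, bleomycin against PBS under gapmer 3, with only the groups compared (limma adjusted p = 0.0238) or array weights (0.0145). The same 2 settings gave a call for Fmod with gapmer 3 in bleomycin lungs (limma adjusted p = 0.00931 and 0.0163). Vcan passed with gapmer 1 under array weights (-0.48, limma adjusted p = 0.00269). The Bcan response difference passed under array weights with gapmer 1 (1.28, limma adjusted p = 0.0157) and gapmer 3 (1.66, limma adjusted p = 0.0043), and with gapmer 3 also with only the groups compared (0.0483) or dim genes left out (0.0457).

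The genes around the members were taken from 9 lists by function, with 117 of 118 genes measured, all members left out. Under the control gapmer bleomycin raised 31 and lowered 25 of the 117, or 26.5% and 21.4%, against 14.5% and 19.3% of all genes. In bleomycin lungs 7 were higher and 9 lower with gapmer 1 (5.98% and 7.69%, against 5.47% and 5.08% of all genes) and 8 higher and 11 lower with gapmer 3 (6.84% and 9.40%, against 5.63% and 7.52%). These shares within bleomycin lungs lay near those of all genes. The difference in bleomycin response from the control gapmer passed for 11 higher and 4 lower with gapmer 1 (9.40% and 3.42%, against 4.97% and 2.74% of all genes). With gapmer 3 it passed for 3 higher and 1 lower (2.56% and 0.855%, against 1.45% and 1.64%). In PBS lungs 0 of the 117 passed for either gapmer. Leaving out single arrays moved these counts to between 24 and 30 higher and 23 and 29 lower with bleomycin, 3 to 11 higher and 7 to 15 lower with gapmer 1, and 3 to 11 higher and 9 to 11 lower with gapmer 3. Without replicate 4 of the bleomycin gapmer 1 group 10 of the 117 were higher and 15 lower with gapmer 1. For fits with an array left out the share of all genes is not given, so these counts cannot be read against it. Replicate 4 was picked for lying near the control gapmer group on member genes, so values without it are no separate support, here or below. The per-list counts with gapmer 1 given next include replicate 4.

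Of 12 other small leucine-rich proteoglycans, 3 rose and 6 fell with bleomycin under the control gapmer, with a list median of -0.56. Ecm2 fell from 9.50 to 7.97 (-1.53, SE 0.14, limma adjusted p = 7.24e-08), Omd, osteomodulin, fell by 1.39, and Ogn, osteoglycin, fell by 1.08 from 14.56 to 13.48. Nyx fell by 0.66. These stand beside the rises of Bgn, Lum and Fmod in the same family. In bleomycin lungs Ecm2 was higher by 0.43 with gapmer 1 and by 0.40 with gapmer 3 (limma adjusted p = 0.0287 and 0.0349), Chad was higher by 0.49 with gapmer 1, and Podnl1 was lower by 0.32 and 0.35. Of the 5 other hyalectan and link proteins only Ncan passed with bleomycin (-0.33), at levels of 6.23 and 5.91 around the dim level, and 0 of 5 passed with either Dnm3os gapmer in bleomycin lungs.

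Enzymes that cleave versican and aggrecan held the largest difference among the listed genes. Adamts4, a proteoglycan-cleaving protease, rose from 7.30 in PBS to 10.77 in bleomycin lungs under the control gapmer, by 3.47 (SE 0.34, 11.1-fold, limma adjusted p = 1.43e-07). It averaged 9.10 with gapmer 1 and 9.01 with gapmer 3 in bleomycin lungs, lower by 1.68 (limma adjusted p = 0.000998) and by 1.76 (limma adjusted p = 0.000428), each with an SE of 0.30. Without gapmer 1 replicate 4 the Adamts4 difference with gapmer 1 was -2.03 (limma adjusted p = 3.8e-06). Adamts15 rose by 1.09 with bleomycin and was lower by 0.58 with gapmer 1 and by 0.35 with gapmer 3. With gapmer 1 it averaged 10.98 in PBS and 10.91 in bleomycin lungs, against 10.40 and 11.49 with the control gapmer. The PBS difference did not pass, and the response was smaller by 1.15 with gapmer 1 (limma adjusted p = 0.00155). Of the 7 enzymes of this list, 4 rose and 2 fell with bleomycin, Adamts8 falling by 0.66 and Adamts1 rising by 0.46; 0 were higher and 2 lower with gapmer 1, and 1 higher (Adamts9, 0.41) and 2 lower with gapmer 3.

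The hyaluronan degradation list had 7 measured genes of 8, of which 3 rose and 1 fell with bleomycin under the control gapmer. Cemip, a hyaluronan-binding protein needed for hyaluronan breakdown, rose by 1.29 from 5.54, under the dim level, to 6.83, so its PBS level may be background. The lysosomal enzymes Gusb and Hexa rose by 0.97 and 0.68, and Hyal2, a hyaluronidase of the cell surface, fell by 0.48. In bleomycin lungs Cemip was lower by 0.68 with gapmer 1 and by 0.70 with gapmer 3 (limma adjusted p = 0.00547 and 0.0031), and Hyal2 was higher by 0.27 and 0.22. Of the 8 genes of sugar precursor supply and Has3, 0 rose and 1 fell, Uap1 by 0.32, and none passed with either Dnm3os gapmer in bleomycin lungs.

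Of 15 hyaluronan receptors and binding proteins 7 rose and 3 fell with bleomycin, with a list median of 0.29. Ptx3, a pentraxin that takes part in cross-linking hyaluronan matrix, rose by 1.84 from 6.03, under the dim level, to 7.87, so its PBS level may be background. The scavenger receptor Stab2 rose by 1.31, the hyaluronan-linked heavy chain Itih3 by 1.07 and Hmmr, a hyaluronan receptor also found on the mitotic spindle, by 0.92. In bleomycin lungs 0 of 15 were higher and 3 lower with each Dnm3os gapmer: Ptx3 by 0.90 and 0.75, Stab2 by 0.63 and 0.63, and Itih3 by 0.56 and 0.61 with gapmer 1 and gapmer 3.

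Among 21 heparan sulphate, cell-surface and other proteoglycans 7 rose and 3 fell with bleomycin. Esm1, endocan of endothelial cells, fell by 1.31 and Tgfbr3, betaglycan, by 1.01, while Spock2 rose by 0.97 and Col18a1, a basement membrane collagen with heparan sulphate chains, by 0.90. All 6 endothelial markers also fell with bleomycin, their list mean going from 12.15 to 12.48 in PBS to 11.33 to 11.66 in bleomycin lungs with the control gapmer; their part in the fall of Esm1 was not tested. In bleomycin lungs Col18a1 was lower by 0.49 with gapmer 1 and by 0.58 with gapmer 3, Gpc1, a glypican, by 0.53 and 0.52, and Agrn, agrin, was higher by 0.31 with each. Sdc2 was higher by 0.25 with gapmer 1 and by 0.24 with gapmer 3. Srgn was lower by 0.25 with gapmer 3, and with gapmer 1 it passed only without replicate 4 (-0.28, limma adjusted p = 0.0184).

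The enzymes that build the sulphated chains were on a pair of lists. Of 22 genes for linker and chondroitin or dermatan sulphate synthesis 4 rose and 6 fell with bleomycin, among them Chst7 (-0.77), Chst15 (-0.70), Csgalnact2 (-0.57) and Chsy3 (0.60). With gapmer 1 in bleomycin lungs 0 of 22 passed, and with gapmer 3 Chpf2 was lower by 0.43 and Csgalnact2 higher by 0.20. Without gapmer 1 replicate 4, 3 of the 22 passed with gapmer 1: Chpf2 (-0.33, limma adjusted p = 0.0422), Csgalnact2 (0.23, limma adjusted p = 0.017) and Chst11 (-0.33, limma adjusted p = 0.0116). Since that array was picked after the values had been seen, these calls are no separate support. Ogn, Itih4, Stab1, Sulf1 and Adamts1 on other lists also passed without it and not with it (0.33, 0.41, -0.26, -0.25 and -0.49). Of 20 heparan sulphate genes 3 rose and 2 fell, with Hs3st1 falling by 1.05 and Ext1, Sulf2 and Hs6st1 rising by 0.96, 0.54 and 0.51. Ndst1 and Hs2st1, which sulphate heparan, were higher by 0.42 and 0.34 with gapmer 1 and by 0.45 and 0.40 with gapmer 3.

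**Figure D4:**
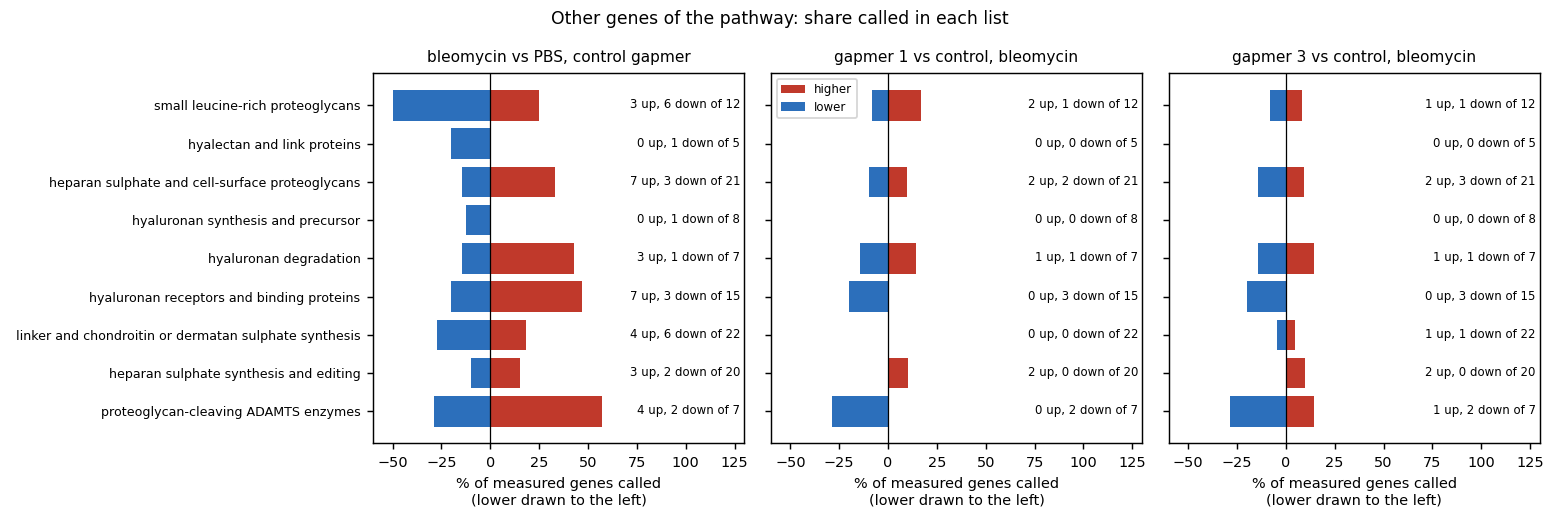
Share of the measured genes of each list that passed the limma test (adjusted p under 0.05), higher to the right in red and lower to the left in blue, in percent, for bleomycin against PBS under the control gapmer and for each Dnm3os gapmer against the control gapmer in bleomycin lungs. Among the hyaluronan receptors and binding proteins 7 of 15 rose and 3 fell with bleomycin, and 0 were higher and 3 lower with each Dnm3os gapmer.

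Within groups, some of the 10 genes varied together from array to array. Over the 24 arrays, as deviations from group means, Pearson's r was above 0.5 for 4 of the 45 gene pairs and below -0.5 for 3. Has2 went with Vcan (r = 0.81) and Fmod (r = 0.62) and against Bcan (r = -0.83). Without replicate 4 of the bleomycin gapmer 1 group these were 0.74, 0.42 and -0.76 over 23 arrays. Fmod went with Prg4 (r = 0.59), Bgn with Dcn (r = 0.51), and Bcan against Vcan (r = -0.60) and Lum (r = -0.54). All points share the normalisation of the arrays, and the values of a pair come from the same RNA, so r is given as a description.

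By the same measure over the 24 arrays, among genes above the median level, Has2 was most alike Inhba (r = 0.92, and 0.81 without that replicate), Ccl9 and Tk1. Bcan was most alike Sftpa1 (r = 0.92, and 0.89 without it), Irx2 and Pcolce2. Sftpa1 is itself one of the alveolar epithelial markers. Vcan was most alike Ipo5, Ifit1 and Pole (r = 0.89, 0.88 and 0.88), Bgn Pofut2 (r = 0.92), Dcn Hsd17b12 (r = 0.86), Lum Ndufs4 (r = 0.76), Fmod Slc39a14 (r = 0.77), Prg4 Cd5l (r = 0.86), Has1 Chic2 (r = 0.88) and Acan Dlk2 (r = 0.83).

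**Figure D5:**
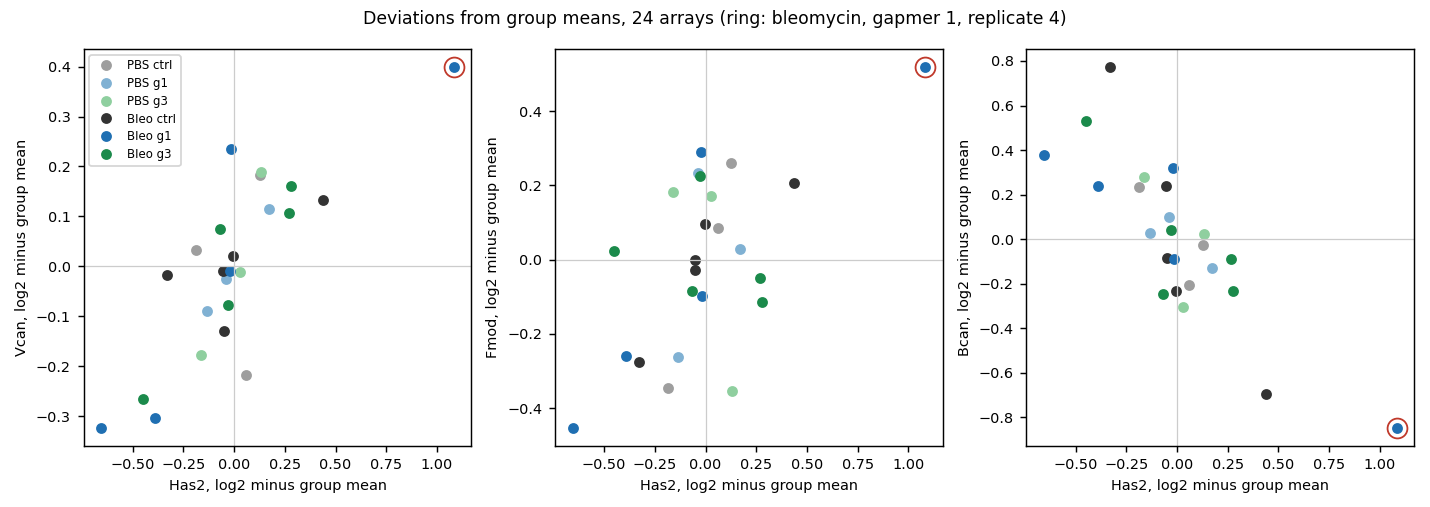
Deviation of each array from its group mean for Has2 (x axis) against Vcan, Fmod and Bcan (y axes), in log2 units, for 24 arrays coloured by group; the ring marks replicate 4 of the bleomycin gapmer 1 group. Has2 and Vcan rise together (r = 0.81), and Has2 and Bcan run opposite (r = -0.83); without the ringed array these are 0.74 and -0.76.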

How the data were processed

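Total RNA from whole mouse lung was hybridised to 24 one-colour Agilent arrays (Cy3), per the labels. The authors deposited log2 intensities whose distributions are alike on all arrays (medians 6.48 to 6.50), as after quantile normalisation. The submitters' processing notes name limma and no version. How background was corrected or features filtered is not given in the sources used here, nor are dose, time after bleomycin or batch.

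Of 62976 features 31465 carried 1 gene symbol, and symbols were updated with a GRCm38.p6 table. Per gene the feature with the highest mean was kept (20728 genes, no filter). All arrays entered 1 limma 3.58.1 fit (R 4.3.3, lmFit and eBayes, two-sided) with 6 group means and 18 residual degrees of freedom, tested on simulated data. Benjamini-Hochberg adjustment ran over all genes, with a threshold of 0.05. The array count limits precision.

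The 10 genes and all lists were chosen with earlier results of these data known. From each list, up to 4 called genes per comparison with the largest differences are named, and per member the 3 genes most alike in their deviations. Alternatives covered normalisation, dim genes, features, variance model, array weights, RNA integrity number, replicate block and left-out arrays.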

Additional observations from a re-analysis of the deposited data

Results flagged for a closer look

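The bleomycin response of 3 genes differed between a Dnm3os gapmer and the control gapmer by a test of the difference itself (limma, Benjamini-Hochberg over all genes). For Bgn it was -0.67 with gapmer 1 (adjusted p = 0.0437), for Lum -0.93 with gapmer 1 (adjusted p = 0.0124), and for Has2 -1.29 with gapmer 1 (adjusted p = 0.0326) and -1.48 with gapmer 3 (adjusted p = 0.0287). The 4 values rest on the same 8 control gapmer arrays. Dixon's test at the 95% level, run in the 30 combinations of gene and bleomycin group of 5 arrays, passed for 0, where chance gives about 1 in 20; PBS groups of 3 were not tested. Replicate 4 of the bleomycin gapmer 1 group did not pass it, although it read 8.18 for Has2 against 6.44 to 7.08 on the other 4.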

How the results depend on the processing

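The number of the 10 genes called was within 1.5 times the value given under all settings tried except these. For bleomycin against PBS with gapmer 1 (4 genes) it was 1 when only the groups compared entered the fit and 2 with the RNA integrity number as a covariate. For gapmer 1 against control in bleomycin lungs (5 genes) it was 3 with only the groups compared, and for the difference in response with gapmer 1 (3 genes) it was 1. For the difference in response with gapmer 3 (1 gene) it was 2 with dim genes left out, 2 with array weights, 2 with only the groups compared, 0 with the RNA integrity number and 3 with the replicate block. Leaving out single arrays gave 6 to 6 genes for bleomycin under the control gapmer, 2 to 4 under gapmer 1 and 3 to 4 under gapmer 3; 3 to 6 for gapmer 1 and 4 to 6 for gapmer 3 against control in bleomycin lungs; 0 to 0 for gapmer 3 against gapmer 1 and for both PBS comparisons; and 1 to 4 and 0 to 2 for the differences in response with gapmer 1 and gapmer 3. The cause was not tested. Among values that passed in the main fit or under the other setting, 1 changed sign. This was Vcan, bleomycin against PBS with gapmer 3, at -0.003 (limma adjusted p = 0.99) with its feature under the dim level. Of 1140 values under other settings 1109 stayed called or uncalled as before, 17 lost the call and 13 gained it. Of 980 with an array left out 924 stayed so, 48 lost the call and 8 gained it. Values that passed in neither fit are counted as unchanged whatever their sign, and some changed sign. For Dcn, bleomycin against PBS with the control gapmer was -0.13, and ran from -0.39 to 0.10 with single arrays left out. The sample numbers share only a number: same-numbered arrays deviated together with r of -0.41 to 0.42 over 30 pairs, 13 of them over 0.1, and every pair was over 0.1 in 1 of 8 comparisons. With the replicate block Has2 lost its call for bleomycin against PBS with gapmer 1 (0.76, limma adjusted p = 0.086), while the response differences with gapmer 3 passed for Bcan (1.36, limma adjusted p = 0.0466) and Bgn (-0.66, limma adjusted p = 0.0376). Removal of a trend with position on the array, and the left-out arrays for the 9 lists, were added after seeing the data; with the trend removed Has2 passed for bleomycin against PBS with gapmer 3 (0.75, limma adjusted p = 0.0442) and Vcan for gapmer 1 against control in bleomycin lungs (-0.36, limma adjusted p = 0.0452). Levels near 6.11, as for Acan, are limited by background.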
